A study of Mus musculus with 9 samples.

Results

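The pentose phosphate pathway and the other enzymes that make NADPH were followed through RNA sequencing of mouse pancreatic tumour cells taken from lungs. The set holds 10 genes, G6pdx, Pgls, Pgd, Tkt, Taldo1, Rpia, Rpe, Me1, Idh1 and H6pd. Members were chosen by name, as the symbol that follows the gene ID in the deposited table, and each matched 1 of its 24012 entries. There were 9 libraries in 3 groups of 3. The DTC libraries came from GFP-positive cells collected 5 days into the experiment, and the label does not spell the abbreviation out. The mCherryHigh and mCherryLow libraries came from GFP-positive cells at 6 weeks, sorted into high and low mCherry; the cells are labelled as expressing Gstt1-mCherry. Every group, mCherryLow included, carried the genotype SIRT6F/F/p48-Cre/p53F/+KrasL/+, in which Cre is driven by p48, a factor of pancreatic progenitor and acinar cells. The cells had reached the lungs by tail vein injection. The labels do not tie libraries to mice, so p-values measure the spread between libraries, which may be technical.

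In the oxidative branch of the pathway, glucose 6-phosphate is oxidised to ribulose 5-phosphate, and NADPH is released on the way. The non-oxidative branch interconverts sugar phosphates, so that carbon can be turned into ribose for nucleotides or returned to glycolysis. NADPH keeps glutathione and thioredoxin reduced and feeds fatty acid and sterol synthesis. Malic enzyme and cytosolic isocitrate dehydrogenase supply NADPH outside the pathway, and H6pd runs the first oxidative steps inside the endoplasmic reticulum.

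Library totals ran from 923988 to 2052623 reads in DTC, from 643748 to 9800173 in mCherryHigh and from 2051266 to 11861241 in mCherryLow. Levels are in CPM, read counts scaled to the library total, and intervals are 95% exact Poisson intervals that cover counting error only. Gstt1 was at 53.3 ± 6.44 CPM in mCherryHigh and 18.8 ± 9.32 CPM in mCherryLow (SD, n = 3 each) and did not pass the test described below (limma adjusted p = 0.444). The predicted gene Gm10800 took 7.07% of reads in DTC 1 and 9.14% in DTC 3. Summed over 12 macrophage markers, led by lysozyme Lyz2, the DTC libraries held 4055 to 9726 CPM, the mCherryHigh libraries 548 to 1409 CPM and the mCherryLow libraries 258 to 2361 CPM. Of that sum, Tyrobp gave 1156 CPM in mCherryHigh 1 and 1873 CPM in mCherryLow 1 and was at 0 in the other libraries of those groups. Without Tyrobp the mCherryHigh libraries held 253 to 709 CPM and the mCherryLow libraries 258 to 488 CPM. Cd68 overlapped among the groups. Its level was 122, 127 and 232 CPM in DTC, 113 to 270 CPM in mCherryHigh and 117 to 211 CPM in mCherryLow. Of the 12 markers, 10 were higher in DTC without overlap in each DTC comparison. The share of all genes was 39% against mCherryLow and 31.4% against mCherryHigh. No macrophage marker was at 0 in DTC, while 1 to 4 were at 0 in each mCherryHigh library and 0 to 5 in each mCherryLow library. DTC 3 stood apart from its group. Its 10 tumour epithelial markers summed to 463 CPM, against 5376 and 6091 CPM in DTC 1 and DTC 2. Of the 10, the keratins Krt8, Krt18 and Krt19 carried most of the sum. DTC 3 was the lowest DTC library in Krt8, Krt18, Krt19, Cdh1, Sox9 and Elf3 and the highest in Krt7 and Muc1. Epcam was lowest in DTC 2, at 4.38 CPM, and Cldn4 was at 0.761, 0 and 0 CPM in DTC 1, 2 and 3. Those markers summed to 2309 to 6142 CPM in mCherryHigh and 1826 to 2656 CPM in mCherryLow, so that the sum, though not each marker, was lowest in DTC 3. Markers of 5 other cell types were also higher in each DTC library than in the other 6. Their sums in DTC, mCherryHigh and mCherryLow were 205 to 459, 31.0 to 51.3 and 14.1 to 22.5 CPM for endothelial cells, and 73.1 to 224, 7.06 to 15.5 and 3.88 to 12.1 CPM for lymphocytes. For neutrophils they were 72.3 to 134, 18.8 to 27.4 and 4.23 to 16.6 CPM, for erythroid cells 73.8 to 232, 4.08 to 35.7 and 4.04 to 21.0 CPM, and for alveolar and airway cells 136 to 492, 10.9 to 42.2 and 9.58 to 24.5 CPM. Fibroblast markers overlapped, at 98.9 to 309.8, 117 to 171 and 72.3 to 131 CPM. The part of these differences in the results was not tested.

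**Figure D1:**
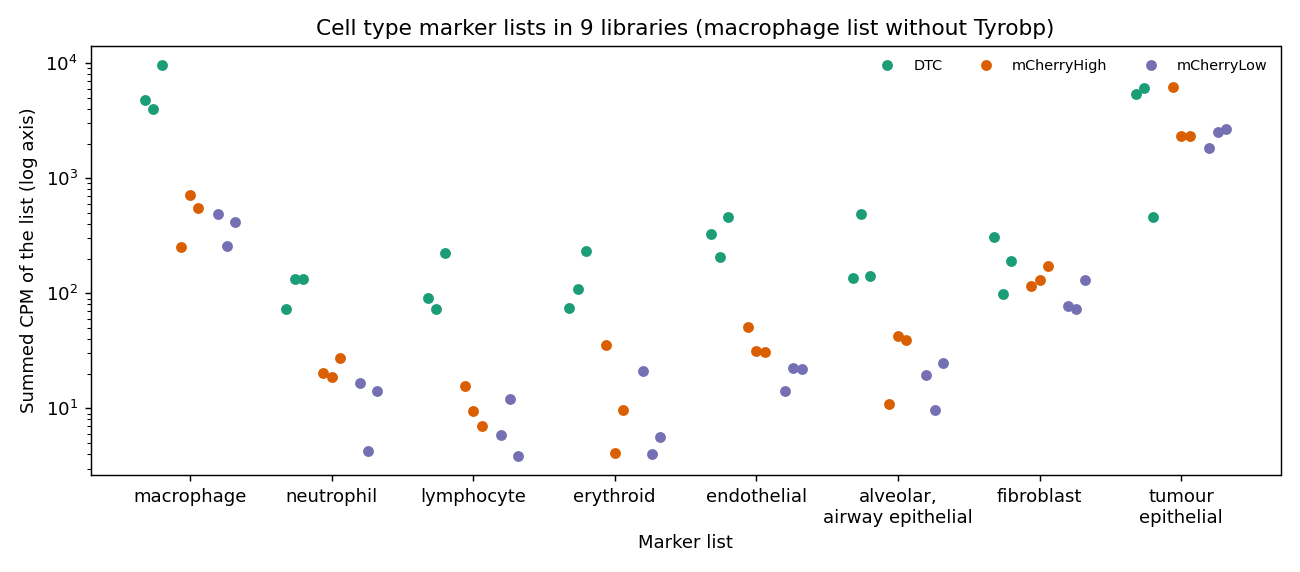
Summed CPM of 8 marker lists (log axis) in the DTC, mCherryHigh and mCherryLow libraries, 1 point per library, with Tyrobp left out of the macrophage list. The DTC libraries lie above the other 6 in the macrophage list, and DTC 3, at 463 CPM, lies below the other 8 in the tumour epithelial list.

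Promoters of 4 members are shown because these genes mark the extremes of what follows, with H6pd and G6pdx falling furthest in DTC, Rpia rising and Me1 giving no call. The windows run 5′ to 3′ from 250 bases before to 50 bases after a RefSeq start on GRCm38.p6, a later build than the mm9 to which the reads were mapped. Capitals mark the letters of 3 motifs searched on both strands. These are TGACNNNGC, a core of the antioxidant response element read by NRF2, CACGTG, an E-box read by MYC, and GGGCGG, a GC box.
G6pdx, chrX:74428831-74429130, minus strand: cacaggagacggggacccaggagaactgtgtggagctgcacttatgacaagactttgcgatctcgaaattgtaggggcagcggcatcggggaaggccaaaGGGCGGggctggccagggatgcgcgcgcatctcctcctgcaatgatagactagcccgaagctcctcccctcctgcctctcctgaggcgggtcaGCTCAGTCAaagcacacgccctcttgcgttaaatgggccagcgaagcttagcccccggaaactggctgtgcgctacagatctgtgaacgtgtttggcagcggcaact
Me1, chr9:86695865-86696164, minus strand: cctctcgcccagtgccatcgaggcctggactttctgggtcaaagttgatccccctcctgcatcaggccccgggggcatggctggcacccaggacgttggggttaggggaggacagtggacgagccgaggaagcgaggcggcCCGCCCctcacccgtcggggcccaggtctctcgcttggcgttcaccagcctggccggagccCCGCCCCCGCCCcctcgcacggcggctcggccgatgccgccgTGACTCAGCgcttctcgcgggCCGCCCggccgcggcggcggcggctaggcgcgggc
H6pd, chr4:150003187-150003486, minus strand: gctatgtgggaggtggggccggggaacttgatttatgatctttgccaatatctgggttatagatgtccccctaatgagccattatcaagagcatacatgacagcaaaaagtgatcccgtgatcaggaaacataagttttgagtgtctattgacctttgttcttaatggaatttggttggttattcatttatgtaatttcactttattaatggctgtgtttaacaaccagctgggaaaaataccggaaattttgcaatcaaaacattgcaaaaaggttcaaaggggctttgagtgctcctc
Rpia, chr6:70792126-70792425, minus strand: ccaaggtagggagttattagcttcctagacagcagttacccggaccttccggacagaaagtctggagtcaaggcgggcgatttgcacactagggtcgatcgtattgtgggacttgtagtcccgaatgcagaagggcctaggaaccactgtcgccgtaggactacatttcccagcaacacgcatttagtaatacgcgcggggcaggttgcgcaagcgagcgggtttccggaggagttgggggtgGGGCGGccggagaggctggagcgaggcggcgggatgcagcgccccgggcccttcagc
The first motif stood in 1 window each of G6pdx, Me1 and Pgd, which is 3 of the 13 windows of the 10 members, against 12.4% of 32851 windows of all genes. A GC box stood in 10 of the 13 windows, against 35.7% of all, and the E-box in 0 of the 13, against 7.15% of all. Neither the H6pd window nor the other Me1 window held any of the 3 motifs. A match is only a run of letters and says nothing of binding.

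Between DTC and mCherryLow, 8 of the 10 genes fell, 1 rose and 1 did not pass the test. The falls were deepest for H6pd and G6pdx, the entry enzymes of the pathway in the endoplasmic reticulum and the cytosol, and shallower for Pgls, Idh1, Tkt and Pgd. Rpia, which makes ribose 5-phosphate, rose 7.61-fold on the log2(CPM + 1) scale used for each fold and difference here. The test was limma with Benjamini-Hochberg adjustment over all 18701 genes tested, at a threshold of 0.05. Over those genes 43.1% were called, 8.87% lower and 34.2% higher, and among the 11944 with a mean of at least 10 CPM, 13.2% were lower and 24.2% higher. Each of the 10 members was tested and had such a mean. The groups did not overlap for 9 of the 10, 8 lower and 1 higher in DTC, against 53.2% of all genes (14.2% lower, 39% higher). The median difference of the members was -1.20, against 0.59 over all genes, so that relative to all genes the median was -1.79. In bulk RNA, fewer cells of a type and less RNA per cell cannot be told apart.

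**Figure D2:**
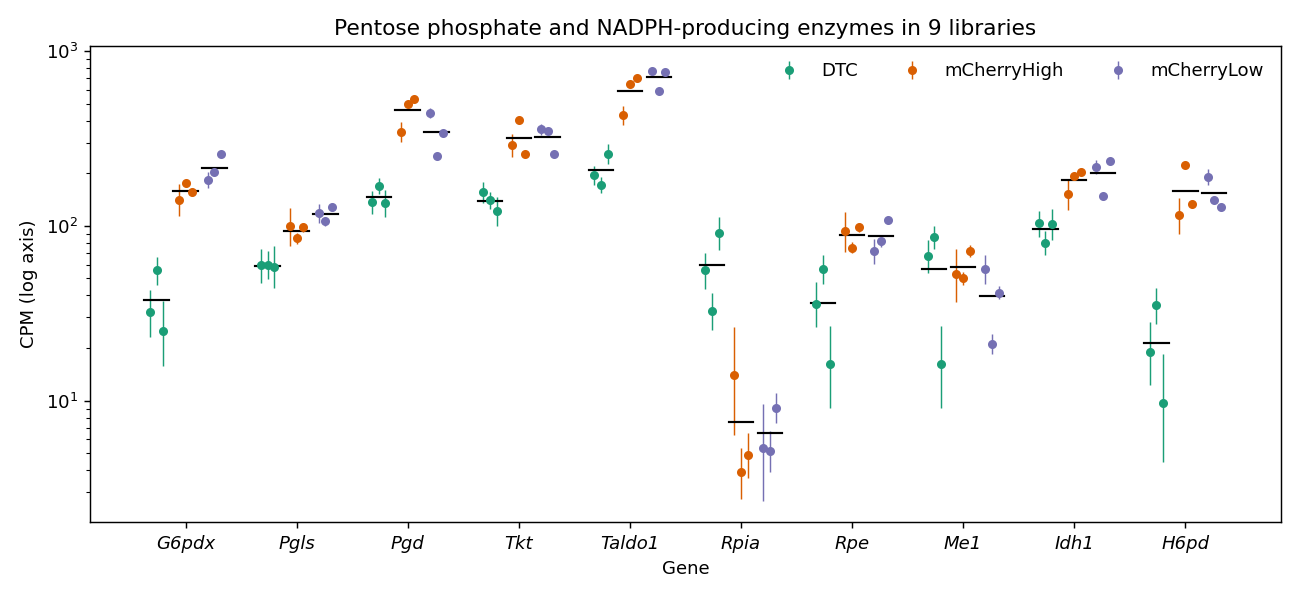
CPM (log axis) of the 10 genes in each DTC, mCherryHigh and mCherryLow library. Points are libraries with 95% exact Poisson intervals, and black lines are group means. The DTC points lie below the others for G6pdx, Pgls, Pgd, Tkt, Taldo1, Rpe, Idh1 and H6pd and above them for Rpia.

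G6pdx (ENSMUSG00000031400), the glucose 6-phosphate dehydrogenase that commits glucose to the pathway, was at 32.0, 55.5 and 24.9 CPM in DTC 1, 2 and 3. Its level was 141, 175 and 156 CPM in mCherryHigh 1, 5 and 6, and 183, 205 and 256 CPM in mCherryLow 1, 5 and 6. The 3 groups did not overlap, with DTC lowest and mCherryLow highest. Against mCherryLow, DTC fell by 2.55 (SE 0.39, limma adjusted p = 0.000712) and against mCherryHigh it fell by 2.12 (SE 0.40, limma adjusted p = 0.00434). Of its 50-base windows, 89.3% are unique, the rest being shared with the retrogene G6pd2 and the overlapping gene Ikbkg, so some reads may belong to those.

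Pgls, the lactonase of the second step, was at 59.4, 59.9 and 58.4 CPM in DTC, from 78, 123 and 54 reads. These values lie closer together than counting error, with an interval of 43.9 to 76.3 CPM in DTC 3, so they do not show a steady level. Pgls was at 99.4, 84.7 and 98.1 CPM in mCherryHigh and at 118, 106 and 128 CPM in mCherryLow, again with no overlap among the 3 groups. Pgls fell against mCherryLow (-0.97, SE 0.34, limma adjusted p = 0.0360). This call was lost without DTC 1, DTC 2, mCherryLow 1, mCherryLow 5 or mCherryLow 6, with limma adjusted p values of 0.0574 to 0.111. Against mCherryHigh the difference was -0.65 (SE 0.35, limma adjusted p = 0.177), with a 95% interval from -1.42 to 0.11.

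Pgd, the 6-phosphogluconate dehydrogenase that releases the second NADPH, was at 136, 169 and 135 CPM in DTC. It stood at 345, 501 and 532 CPM in mCherryHigh and at 442, 253 and 341 CPM in mCherryLow. Every DTC library lay below the other 6, while mCherryHigh and mCherryLow overlapped. Pgd fell against mCherryHigh (-1.62, SE 0.33, limma adjusted p = 0.00593) and against mCherryLow (-1.20, SE 0.34, limma adjusted p = 0.0139). The second call was lost without DTC 1 (-1.15, limma adjusted p = 0.0696) or mCherryLow 1 (-1.003, limma adjusted p = 0.0773).

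H6pd, the endoplasmic reticulum enzyme whose NADPH serves steroid-activating reductases, fell furthest. It was at 19.0, 35.1 and 9.74 CPM in DTC, from 25, 72 and 9 reads, with an interval of 4.45 to 18.5 CPM in DTC 3. In mCherryHigh it was at 115, 223 and 134 CPM, and in mCherryLow at 191, 141 and 128 CPM. The DTC libraries lay far below the other groups, which overlapped. DTC differed from mCherryLow by -2.94 (SE 0.47, limma adjusted p = 0.000866), which is at percentile 0.102 of the differences of all tested genes, and from mCherryHigh also by -2.94 (SE 0.50, limma adjusted p = 0.00303).

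In the non-oxidative branch, the rearranging enzymes fell while the isomerase rose. Tkt, the transketolase that moves carbon pairs between sugars, was at 155, 139.8 and 121 CPM in DTC. Its values were 289, 402 and 259 CPM in mCherryHigh and 356, 348 and 258 CPM in mCherryLow. Taldo1, the transaldolase that acts beside it, was at 196, 172 and 258 CPM in DTC, against 429, 646 and 705 CPM in mCherryHigh and 766, 595 and 762 CPM in mCherryLow. For both genes the DTC libraries lay below the other 6, and the other groups overlapped. Tkt fell against mCherryLow (-1.19, SE 0.32, limma adjusted p = 0.0113) and against mCherryHigh (-1.17, SE 0.34, limma adjusted p = 0.0237). Taldo1 fell against mCherryLow (-1.77, SE 0.32, limma adjusted p = 0.00147) and against mCherryHigh (-1.49, SE 0.35, limma adjusted p = 0.00962). The Tkt call against mCherryLow was lost without mCherryLow 1 (limma adjusted p = 0.0533), and that against mCherryHigh without DTC 1 (limma adjusted p = 0.0689) or mCherryHigh 5 (limma adjusted p = 0.108). The Taldo1 call against mCherryHigh was lost without DTC 1 (limma adjusted p = 0.0513). Of the 50-base windows of Taldo1, 89.1% are unique, the rest being shared with Gm17823.

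Rpia (ENSMUSG00000053604), the ribose 5-phosphate isomerase, moved against the other 8 genes that passed. It was at 55.6, 32.6 and 90.9 CPM in DTC, from 73, 67 and 84 reads. In mCherryHigh it was at 13.98, 3.88 and 4.91 CPM, and in mCherryLow at 5.36, 5.16 and 9.11 CPM. The lowest DTC library, at an interval of 25.3 to 41.5 CPM, overlapped in counting error with mCherryHigh 1, at 6.39 to 26.5 CPM from 9 reads, and with none of the other libraries outside its group. Rpia rose against mCherryLow (2.93, SE 0.53, limma adjusted p = 0.00145) and against mCherryHigh (2.89, SE 0.61, limma adjusted p = 0.00673). Its rise of 2.93 lay at percentile 86.5 of all tested genes, since many genes were higher in DTC. Each of its windows is unique. Within DTC it was highest in DTC 3, which also had the highest macrophage sum and the lowest tumour epithelial sum.

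Rpe, the epimerase that makes xylulose 5-phosphate from the same ribulose 5-phosphate, moved the other way. It was at 35.8, 56.5 and 16.2 CPM in DTC, at 93.2, 75.0 and 98.0 CPM in mCherryHigh and at 71.7, 81.4 and 108 CPM in mCherryLow. The DTC libraries lay below the rest, and DTC 3, from 15 reads, was lowest. Rpe fell against mCherryLow (-1.39, SE 0.48, limma adjusted p = 0.0341) and against mCherryHigh (-1.43, SE 0.48, limma adjusted p = 0.0439). Without DTC 3 both calls were lost, at -0.91 against mCherryLow (limma adjusted p = 0.100) and -0.95 against mCherryHigh (limma adjusted p = 0.106). They were also lost without DTC 1 (limma adjusted p = 0.0855 and 0.0964) and without any 1 library of the group set against DTC, with limma adjusted p values up to 0.104 against mCherryLow and 0.107 against mCherryHigh. Of its windows, 80.9% are unique, the rest being shared with the overlapping gene Kansl1l. The ratio of Rpia to Rpe reads, which does not depend on scaling between libraries, was 1.55, 0.578 and 5.60 in DTC, 0.150, 0.0517 and 0.0501 in mCherryHigh and 0.0748, 0.0634 and 0.0845 in mCherryLow.

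The cytosolic NADPH sources outside the pathway differed from each other. Idh1, which oxidises isocitrate, was at 104, 79.9 and 103 CPM in DTC, at 152, 192 and 205 CPM in mCherryHigh and at 217, 147 and 236 CPM in mCherryLow. The DTC libraries lay below the other 6. Idh1 fell against mCherryLow (-1.04, SE 0.35, limma adjusted p = 0.0294), and against mCherryHigh its difference was -0.93 (SE 0.34, limma adjusted p = 0.0577), with a 95% interval from -1.67 to -0.19 before adjustment. The call against mCherryLow was lost without DTC 1, DTC 2, mCherryLow 1 or mCherryLow 6, with limma adjusted p values of 0.0720 to 0.111, and Idh1 passed against mCherryHigh in 5 alternatives, edgeR and DESeq2 among them. Me1, the malic enzyme that turns malate into pyruvate, was at 67.0, 86.2 and 16.2 CPM in DTC, at 52.8, 49.999 and 72.0 CPM in mCherryHigh and at 56.6, 21.1 and 41.5 CPM in mCherryLow. Its groups overlapped, and the value of DTC 3 was the lowest of the 9. Me1 differed by 0.31 against mCherryLow (95% interval -1.04 to 1.65, limma adjusted p = 0.713) and by -0.32 against mCherryHigh (95% interval -1.59 to 0.94, limma adjusted p = 0.699). Without DTC 3 these were 1.03 (limma adjusted p = 0.127) and 0.40 (limma adjusted p = 0.472). Of the Me1 windows, 67.2% are unique, the rest being shared with Gm7049, Gm48795 and Gm7329, so its level is uncertain.

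**Figure D3:**
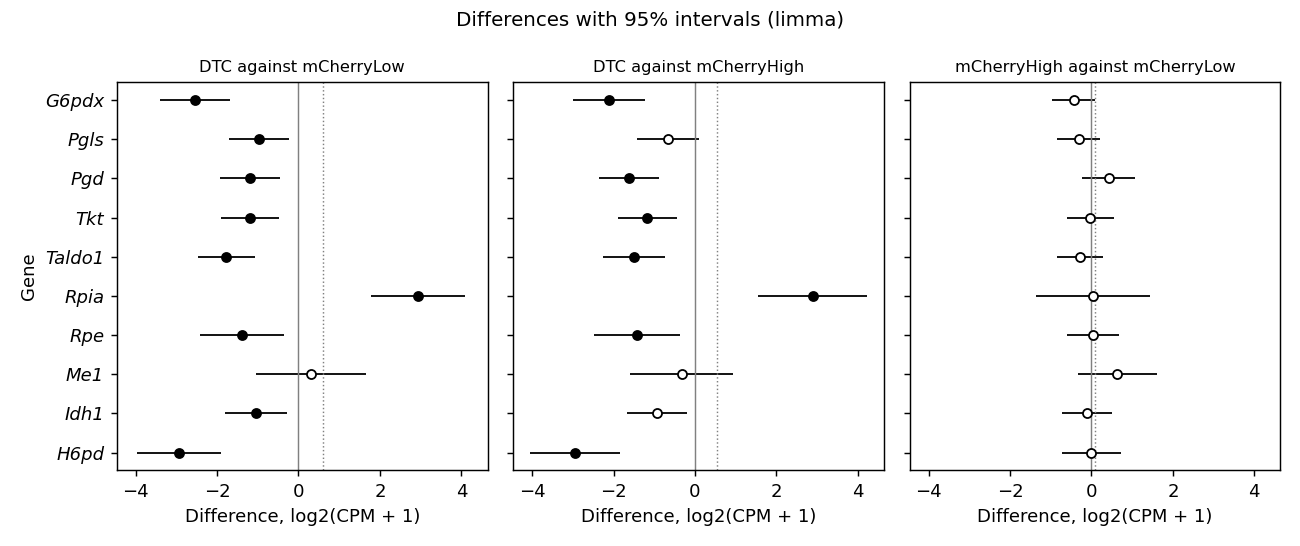
Difference in log2(CPM + 1) with its 95% interval for each gene in 3 comparisons. Filled points passed limma at an adjusted p of 0.05, and the dotted line is the median of all tested genes. Of the 10 genes, 9 are filled for DTC against mCherryLow, 7 for DTC against mCherryHigh and 0 for mCherryHigh against mCherryLow.

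DTC against mCherryHigh gave 6 falls and 1 rise, with Pgls, Idh1 and Me1 not passing. Over the 19700 genes tested, 30.2% were called, 7.19% lower and 23% higher, and of those with a mean of at least 10 CPM, 11% were lower and 20% higher. The groups did not overlap for 9 of the 10 members, 8 lower and 1 higher in DTC, against 44.7% of all genes (13.2% lower, 31.4% higher). The median difference of the members was -1.30, against 0.55 over all genes. Both DTC comparisons use the same 3 DTC libraries, so their likeness is not a second observation. All 3 DTC libraries share a code series in the label descriptions that no other library has. Series, collection time and gate cannot be told apart here from what DTC denotes. Without DTC 3, 8 members passed against mCherryLow and 6 against mCherryHigh, with Rpe the loss in each. Without DTC 1, 5 and 4 passed, and without mCherryLow 1, 4 passed against mCherryLow. Without DTC 1, the losses were Pgls, Pgd, Rpe and Idh1 against mCherryLow and Tkt, Taldo1 and Rpe against mCherryHigh. Quantile normalization left 4 in each comparison, G6pdx, H6pd and Rpia in both, with Taldo1 against mCherryLow and Pgd against mCherryHigh. Thinning to the shallowest library left 6 in each, without Pgls, Rpe and Idh1 against mCherryLow and without Rpe against mCherryHigh.

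Between mCherryHigh and mCherryLow, none of the 10 genes passed the test. limma called 0 of 15437 genes (0%), the smallest adjusted p among the members being 0.592, and edgeR also called 0, while DESeq2 called 148 genes but 0 members. Before adjustment, 939 genes were higher and 509 lower by limma at p under 0.05, and 0 of these were members. G6pdx and Pgls were lower in every mCherryHigh library than in every mCherryLow library, by -0.43 (95% interval -0.96 to 0.10) and -0.32 (95% interval -0.85 to 0.22). Of all tested genes, 15.9% parted without overlap, 5.78% with mCherryHigh lower and 10.2% with it higher. In the code series of both number 1 libraries, G6pdx had 141 CPM in mCherryHigh and 183 CPM in mCherryLow. In the other mixed series it had 175 CPM in mCherryHigh 5, against mCherryLow 5 with 205 CPM and mCherryLow 6 with 256 CPM. Pgls in the same series had 99.4 CPM in mCherryHigh 1 and 118 CPM in mCherryLow 1, then 84.7 CPM in mCherryHigh 5, against mCherryLow 5 with 106 CPM and mCherryLow 6 with 128 CPM. The series of mCherryHigh 6 holds no mCherryLow library. Pgd (0.42) and Me1 (0.63) had the highest positive differences of the set, with 95% intervals from -0.23 to 1.07 and from -0.34 to 1.60. Differences for Tkt, Rpia, Rpe and H6pd were -0.03, 0.04, 0.04 and -0.0019, each changing sign under another scaling or without 1 library. The median of the members was -0.02, against 0.09 over all genes.

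Summed over the 10 genes, DTC libraries held 859, 886 and 833 CPM, against 1730.5, 2352 and 2263 CPM in mCherryHigh and 2407, 1903 and 2267 CPM in mCherryLow. Shares of that sum do not depend on scaling between libraries. Rpia made up 6.47, 3.68 and 10.9% in DTC, 0.808, 0.165 and 0.217% in mCherryHigh and 0.223, 0.271 and 0.402% in mCherryLow. The share of H6pd was 2.21, 3.96 and 1.17% in DTC, 6.64, 9.49 and 5.92% in mCherryHigh and 7.92, 7.43 and 5.65% in mCherryLow. G6pdx made up 3.72, 6.27 and 2.99% in DTC, 8.17, 7.44 and 6.90% in mCherryHigh and 7.60, 10.7 and 11.3% in mCherryLow. For each of these 3 genes the DTC shares lay outside the range of the other 6 libraries. The share of Pgls also lay apart, at 6.91, 6.76 and 7.01% in DTC and 3.60 to 5.75% in the other 6. Me1 and Idh1 together held 14.3 to 19.8% in DTC, 10.3 to 12.2% in mCherryHigh and 8.85 to 12.2% in mCherryLow. Pgls, Pgd and G6pdx together held 26.5, 32.1 and 26.2% in DTC, 33.8, 32.3 and 34.7% in mCherryHigh and 30.9, 29.6 and 32.0% in mCherryLow, so the share of the cytosolic oxidative branch in DTC 2 lay within the range of the sorted groups.

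**Figure D4:**
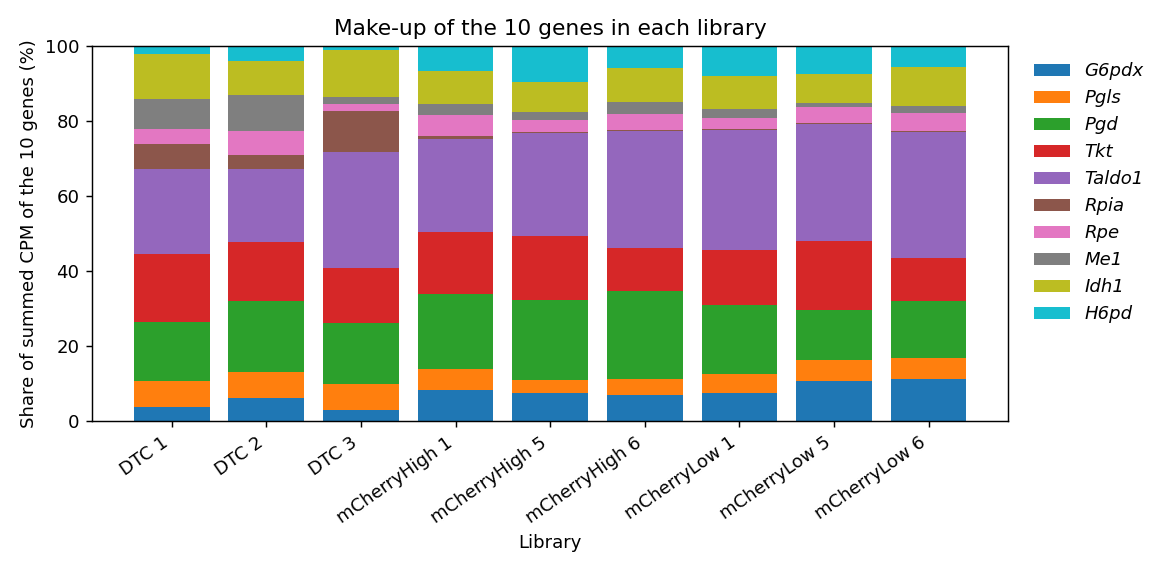
Share (%) of each gene in the summed CPM of the 10 genes, 1 bar per library, with DTC left, mCherryHigh in the middle and mCherryLow right. Rpia is a visible band in DTC, at 3.68 to 10.9%, and at most 0.808% in the other libraries.

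Per kilobase of the longest protein-coding transcript, Taldo1 had the highest level of the set in each group, at 153, 435 and 520 CPM per kb in DTC, mCherryHigh and mCherryLow. Pgd came next at 66.1, 207 and 156 CPM per kb. In mCherryLow the level then passed from Pgls (110.5 CPM per kb) through Tkt (99.5), Idh1 (86.9) and G6pdx (80.9) to H6pd (32.3) and Rpe (32.0), with neighbours from Pgd to G6pdx overlapping in their library ranges, and H6pd with Rpe. Me1 (12.1) and Rpia (3.58) closed the order, each apart from its neighbours. In mCherryHigh, Tkt (98.3), Pgls (88.6) and Idh1 (79.4) overlapped, followed by G6pdx (59.4), H6pd (33.2), Rpe (32.7), Me1 (17.7) and Rpia (4.15). In DTC, Rpia stood sixth at 32.6 CPM per kb, after Pgls (55.8), Tkt (43.1) and Idh1 (41.4) and ahead of Me1 (17.2), G6pdx (14.1), Rpe (13.3) and H6pd (4.49). From Tkt down, each DTC neighbour overlapped with the next.

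Over all 9 libraries, Pearson correlations of log2(CPM + 1) between members had a median of 0.80 across 45 pairs, the pairs of Rpia being negative in 9 of 9. The closest pair was Taldo1 with Idh1 (0.97), and the most opposed was Rpia with H6pd (-0.98). These values mostly restate the distance of DTC from the rest, since over the 6 mCherryHigh and mCherryLow libraries the median was 0.04, with 25 of 45 pairs positive. The points share depth and code series. The 5 genes most like the mean standardised profile of the 10 members, over 9 libraries and 11459 genes with a mean of at least 10 CPM, were Pold4 (Pearson 0.99), Rnpep (0.99), 1700081L11Rik (0.99), Cib1 (0.98) and Cpt1a (0.98). Pold4, a small subunit of DNA polymerase delta, was at 23.3 CPM in DTC, 73.4 CPM in mCherryHigh and 83.5 CPM in mCherryLow. Cpt1a, the gate enzyme of mitochondrial fatty acid oxidation, was at 42.0 CPM in DTC, 329.6 CPM in mCherryHigh and 275 CPM in mCherryLow.

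Genes around the pathway were counted in 6 lists, of which those of NADPH-using redox enzymes held the most falls. In DTC against mCherryLow, 7 of 14 such genes fell and 1 rose, with a median of -1.30, against 8.87% lower and 34.2% higher and a median of 0.59 over all genes. Por, which passes electrons from NADPH to cytochrome P450, was at 52.5 ± 26.6 CPM in DTC and 273 ± 30.3 CPM in mCherryLow (SD, n = 3 each; -2.49, limma adjusted p = 0.00115). Blvrb, a biliverdin reductase, was at 19.4 CPM in DTC and 92.8 CPM in mCherryLow (-2.28, limma adjusted p = 0.00212), and Txnrd1, the cytosolic thioredoxin reductase, at 147 CPM in DTC and 430.3 CPM in mCherryLow (-1.60, limma adjusted p = 0.00353). The gene that rose, named after its value was seen, was the carbonyl reductase Cbr1, at 6.09, 1.46 and 10.8 CPM in DTC and 1.95, 0.0939 and 0 CPM in mCherryLow. Its groups overlapped, and it entered the test through its DTC levels, with 1 mCherryLow library at 1 CPM or more. Against mCherryHigh, 7 of the 14 fell and 0 rose, beside 7.19% lower and 23% higher over all genes. Blvrb, Por and Txnrd1 were at -2.44, -2.43 and -1.57 (limma adjusted p = 0.00390, 0.00403 and 0.00884). The counts against mCherryLow were 5 without DTC 1, 5 without mCherryLow 1 and 4 without mCherryLow 6, and those against mCherryHigh were 4 without DTC 1 and 4 without mCherryHigh 6.

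Of the other NADPH sources, 3 of 12 rose and 3 fell against mCherryLow, with a median of -0.57, beside 34.2% higher, 8.87% lower and a median of 0.59 over all genes. Me3, a mitochondrial malic enzyme, rose to 104 ± 35.7 CPM in DTC, against 8.51 ± 5.69 CPM in mCherryLow (SD, n = 3 each; 3.69, limma adjusted p = 0.000961). Aldh1l2, which oxidises formyl-folate in mitochondria, was at 85.9 CPM in DTC and 7.05 CPM in mCherryLow (3.42, limma adjusted p = 0.00131). Me2, the other mitochondrial malic enzyme, fell to 72.5 CPM in DTC, against 255 CPM in mCherryLow (-1.87, limma adjusted p = 0.00233). The list was drawn up by gene name, and which cofactor Me2 uses was not examined, so its fall need not be that of an NADPH source. Against mCherryHigh, 4 rose and 2 fell, beside 23% higher and 7.19% lower over all genes. Me3 was at 2.89, Aldh1l2 at 3.22 and Nadk, the kinase that makes NADP from NAD, at -1.77 (limma adjusted p = 0.00239, 0.00305 and 0.0147). In mCherryHigh, Me3 averaged 13.1 CPM and Aldh1l2 7.25 CPM. Without DTC 1, 2 rose and 1 fell against mCherryHigh, and quantile normalization left 2 rises.

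The NADPH oxidase genes, whose products spend NADPH to make superoxide in phagocytes, rose in 6 of 11 tested against mCherryLow, and 0 fell, with a median of 1.79. Over all genes 34.2% were higher, with a median of 0.59. Ncf1, a cytosolic organiser of the complex, was at 151 ± 75.8 CPM in DTC and 6.75 ± 5.87 CPM in mCherryLow (SD, n = 3 each; 4.78, limma adjusted p = 0.00106), with 2 of the mCherryLow libraries at 1 CPM or more. Ncf1 thus entered that test through its DTC levels. Cyba, its membrane partner, was at 339.9 CPM in DTC and 36.6 CPM in mCherryLow (3.42, limma adjusted p = 0.00285), and Nox4, a form found in non-phagocytic cells, at 30.3 CPM in DTC and 1.85 CPM in mCherryLow (3.35, limma adjusted p = 0.00168). Against mCherryHigh, 3 of 12 rose, which is near the 23% of all genes that were higher in that comparison. The list median there was 1.15, against 0.55 over all genes. Ncf1 was at 3.85, Cyba at 2.57 and Nox4 at 2.61 (limma adjusted p = 0.00157, 0.00413 and 0.0216). The macrophage marker sum without Tyrobp was also highest in DTC, at 3981 to 9536 CPM. That sum was 253 to 709 CPM in mCherryHigh and 258 to 488 CPM in mCherryLow, and its part was not tested. Without DTC 2, 5 of the list rose against mCherryHigh.

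Among regulators and glucose 6-phosphate supply, 3 of 11 rose and 3 fell against mCherryLow, with a median of -0.97, beside 34.2% higher and 8.87% lower over all genes. Slc2a3, a glucose transporter, was at 65.0 CPM in DTC and 1.85 CPM in mCherryLow (4.44, limma adjusted p = 0.000430). Hk3, a hexokinase of leukocytes, is 1 of the 3 rises but entered the test through DTC alone, at 27.4, 19.0 and 7.58 CPM in DTC and 0.98, 0 and 0 CPM in mCherryLow, so its values are given as a description. Hk3 was not tested between the sorted groups, since too few of those libraries reached 1 CPM. Nfe2l2, which encodes NRF2, fell to 70.8 ± 24.4 CPM in DTC, against 188 ± 13.3 CPM in mCherryLow (SD, n = 3 each; -1.46, limma adjusted p = 0.00850). Against mCherryHigh, 2 rose and 2 fell, beside 23% higher and 7.19% lower over all genes. Slc2a3 was at 3.74 and Nfe2l2 at -1.50 (limma adjusted p = 0.00291 and 0.0148). Hk3, the other rise, was at 3.11, 1.63 and 0 CPM in mCherryHigh. Without DTC 1, 1 gene of the list passed in each comparison, a rise, without DTC 3, 3 passed against mCherryLow, and without mCherryHigh 5, 2 passed against mCherryHigh.

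Biosynthetic users of NADPH fell in 3 of 15 against mCherryLow, and 0 rose, with a median of -0.52, beside 8.87% lower and 34.2% higher over all genes. They were Aldh18a1 and Pycrl, enzymes of proline synthesis (-1.43 and -1.46, limma adjusted p = 0.00652 and 0.0152), and Tecr, a reductase of fatty acid elongation (-1.66, limma adjusted p = 0.0121). Against mCherryHigh, 1 of the 15 rose and 1 fell, beside 23% higher and 7.19% lower over all genes. The fall was that of Pycrl (-1.55, limma adjusted p = 0.0191). In the list of ribose phosphate use and side enzymes, 1 of 11 fell and 0 rose against mCherryLow, with a median of -0.28. Over all genes 8.87% were lower and 34.2% higher, with a median of 0.59. The count of falls was thus near the share of all genes. The fall was that of Pgm2 (ENSMUSG00000025791), a phosphoglucomutase gene, at 22.4 CPM in DTC and 96.3 CPM in mCherryLow (-2.17, limma adjusted p = 0.00552). Pgm2 was matched by symbol alone, in a table that holds some older gene names. Whether that entry is the ribose phosphate enzyme meant by the list was not checked, so its place there is uncertain. Against mCherryHigh, Pgm2 (-2.15, limma adjusted p = 0.0116) and Prpsap1 (-1.31, limma adjusted p = 0.0463) fell and Prps1l3, a ribose phosphate pyrophosphokinase gene, rose (3.62, limma adjusted p = 0.00621). These were 2 falls and 1 rise among 12 tested, beside 7.19% lower and 23% higher over all genes. Prps1l3 reached 1 CPM in 2 mCherryHigh libraries, so it entered this test through its DTC levels. It averaged 25.7 CPM in DTC, 1.02 CPM in mCherryHigh and 26.9 CPM in mCherryLow. For biosynthetic users against mCherryHigh, 4 passed without DTC 2, 4 without mCherryHigh 1 and 1 without DTC 1. For ribose phosphate use, 2 passed against mCherryLow without DTC 2, and 1 against mCherryHigh without DTC 1. Between mCherryHigh and mCherryLow, 0 genes of the 6 lists passed limma, and DESeq2 called 1 gene each of the ribose phosphate list and of the other NADPH sources, both lower in mCherryHigh.

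**Figure D5:**
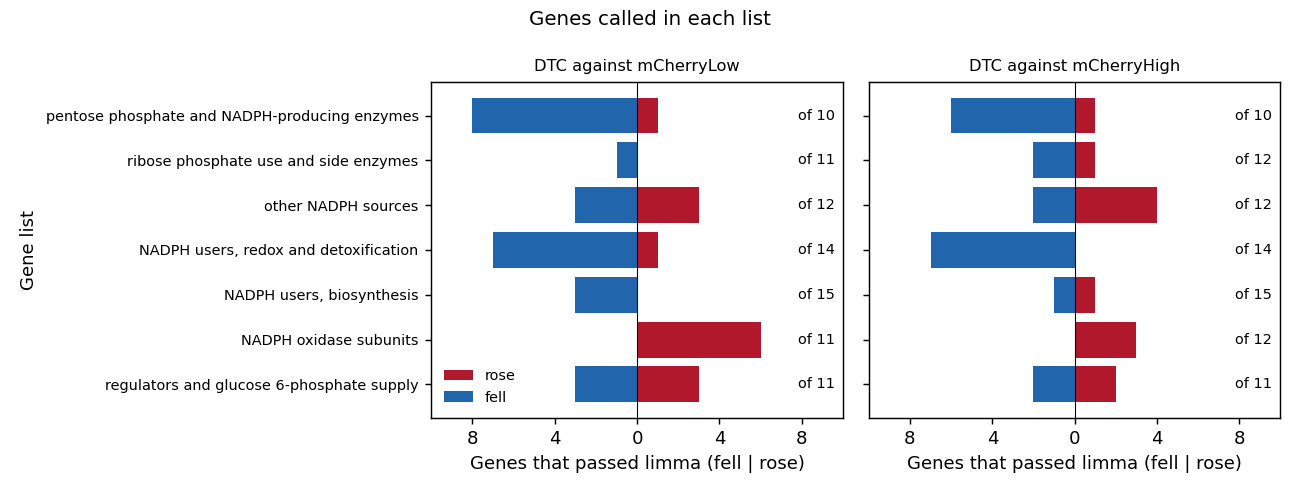
Number of genes in each list that fell (left, blue) or rose (right, red) in DTC against mCherryLow and against mCherryHigh, with the number tested at the right edge. The 10 enzymes (8 fell against mCherryLow) and the NADPH-using redox enzymes (7 fell) lie mostly on the falling side. The NADPH oxidase list has rises alone, 6 of 11 and 3 of 12, the second near the share of all genes. Over all genes, 34.2% rose and 8.87% fell against mCherryLow, and 23% rose and 7.19% fell against mCherryHigh.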

How the data were processed

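RNA from sorted cells was made into libraries with a SMART-seq kit and Nextera XT, per the labels' protocols. Reads were mapped to mm9, per the submitters' processing notes, while for the aligner and counter the sources used here give no name. CPM values of 24012 genes, 1 column per library, were deposited as the authors made them. In each column 100% of values were whole reads within 0.01 read, so library totals (643748 to 11861241 reads) were recovered. The limit set by a count of 0, taken as 3 reads, was 4.66 CPM in the shallowest library and 0.253 CPM in the deepest.

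Genes that reached 1 CPM in 3 or more of the 6 libraries compared were tested with limma 3.58.1 (R 4.3.3) on log2(CPM + 1), two-sided, with a mean-variance trend and group alone, adjusted by Benjamini-Hochberg over all genes. Alternatives were pseudocounts of 0.5 and 5, no filter or 5 CPM, quantile and median-of-ratios scaling, 1 fit of all libraries, the recovered reads tested by edgeR 4.0.16 and by DESeq2 1.42.0, thinning, leaving out each library, the label number as a block and the code series as a term. With 1 library left out, the variance is pooled over the rest. The test was also run on simulated data with an equal spread set for every gene and group and few changed genes. That run does not cover unequal spread or the many changes of the DTC comparisons.

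Members and lists were chosen with earlier results of these data known. Named genes outside the members are, in each list, up to 3 that passed with the smallest p, the 5 genes most like the members, Gstt1 and the leading marker. A result of 1 gene that this rule names is not reported here. Cbr1, Gm10800, Tyrobp, Cd68 and the single tumour epithelial markers were chosen after their values were seen. GENCODE annotation of a later build than mm9 gave the length of each transcript and how many of its 50-base windows no other gene's transcript holds. Promoters came from RefSeq (GRCm38.p6), with 10 of 10 members matched.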

Additional observations from a re-analysis of the deposited data

How the results depend on the processing

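Of the members, G6pdx, Taldo1, Rpia and H6pd kept their call against mCherryLow, and G6pdx, Pgd, Rpia and H6pd against mCherryHigh, in all 16 alternatives run for each. Over the 10 members, 131 of 160 alternatives against mCherryLow kept direction and side of the threshold, 25 lost the call and 4 changed sign. Against mCherryHigh 141 of 160 did, 13 lost the call, 5 gained it (Idh1) and 1 changed sign. Between mCherryHigh and mCherryLow 152 of 180 did, and 28 changed sign.

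Members called against mCherryLow numbered 9, and 4 with quantile normalization, with a range of 4 to 8 when 1 library was left out. Against mCherryHigh they numbered 7, and 4 with quantile normalization, with a range of 4 to 7. Over all genes, 8064 were called against mCherryLow (6405 higher, 1659 lower), 4300 with quantile normalization (2264 and 2036), 8670 with median-of-ratios scaling (5625 and 3045), 7657 with edgeR (4559 and 3098) and 8087 with DESeq2 (5142 and 2945), and 3628 to 7008 with 1 library left out. Against mCherryHigh 5949 were called (4532 higher, 1417 lower), 3150 with quantile normalization (1615 and 1535), 5242 with edgeR (3124 and 2118) and 6313 with DESeq2 (4196 and 2117), and 2538 to 6997 with 1 library left out. DESeq2 called 148 genes between mCherryHigh and mCherryLow. The cause of these shifts was not tested.

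Changes of sign were in differences that did not pass. Me1 against mCherryLow was -0.090 with quantile normalization, -0.052 with median-of-ratios scaling and -0.14 to 1.03 with 1 library left out, and against mCherryHigh it was -0.77 to 0.40. Between mCherryHigh and mCherryLow, Tkt was 0.031 with quantile normalization, 0.016 with thinning and 0.11 with the code series as a term. Rpia was -0.24 with quantile normalization, -0.10 with median-of-ratios scaling, -0.10 with edgeR, -0.18 with DESeq2 and -0.19 with thinning. Rpe was -0.12 with median-of-ratios scaling, -0.12 with edgeR, -0.13 with DESeq2 and -0.021 with the code series. H6pd was 0.0032 with thinning and 0.10 with the code series. With 1 library left out, Tkt was -0.21 to 0.10, Rpia -0.45 to 0.36, Rpe -0.087 to 0.20, Idh1 -0.32 to 0.021 and H6pd -0.28 to 0.19.

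Label numbers 1, 5 and 6, and the title letters A, E and F, are shared by mCherryHigh and mCherryLow. Deviations from the group mean correlated at -0.20, -0.02 and 0.27 for same-numbered libraries. For libraries of unlike number the range was -0.44 to 0.33, so same-numbered libraries were not taken as pairs. With 3 libraries per group, this check cannot exclude that they share a source. The replicate block gave 0 members and 0 genes called, as without it. No paired analysis was possible because DTC shares fewer than 2 numbers with the other groups. Depth limits the low counts most, as for H6pd at 9 reads in DTC 3.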
